A study of Rattus norvegicus with 6 samples.

Results

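The D-type cyclins, their partner kinases CDK4 and CDK6 and the CDK inhibitors of the INK4 and CIP/KIP families were examined in pancreatic islets of ageing rats. The 10 genes *Ccnd1*, *Ccnd2*, *Ccnd3*, *Cdk4*, *Cdk6*, *Cdkn1a*, *Cdkn1b*, *Cdkn2a*, *Cdkn2b* and *Cdkn2c* were taken by name, and 8 of the 10 had an array probe whose RefSeq accession led to that name, among 13897 genes named in this way. *Ccnd3* and *Cdk6* had no such probe and were not analysed here. Islet RNA came from 3 male Wistar rats aged 3 months and 3 aged 12 months, with no further treatment or genetic change named, and each sample was hybridised to its own 1-colour array. The 12-month array called 3 here has no replicate number in the labels. Islets were prepared with collagenase, so all islet cell types, and whatever tissue came with them, contributed RNA.

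D-type cyclins rise when growth factors or hormones reach a cell. They bind CDK4 or CDK6, and the complex phosphorylates the retinoblastoma protein and its relatives, which releases E2F factors to switch on the genes of DNA synthesis. INK4 inhibitors bind the kinases directly, whereas the CIP/KIP proteins p21 and p27 bind cyclin-kinase complexes and act most strongly on cyclin E and CDK2. In rodents cyclin D2 and CDK4 are needed for beta cells to multiply after birth, and p16 and p27 are known as brakes on the adult beta cell. The study compared the 2 ages to learn which transcripts accompany the loss of the proliferative response of older beta cells.

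Each of the 8 genes was read by 1 probe, and each probe was well above background on all 6 arrays. Levels are quantile-normalised log2 signals, on which a step of 1 is a doubling, and a difference is the 12-month mean minus the 3-month mean. Levels of different genes are not compared, because each probe has its own brightness. Each age was scanned in a run of its own, so age and scan cannot be told apart. The arrays also differed in background: the median negative control read 89.5 to 91.0 signal units at 12 months and 29.5 to 31.0 at 3 months, and 54.1% to 59.1% against 69.4% to 74.2% of spots were well above background. In whole islets fewer cells of a type and less RNA per cell cannot be told apart.

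*Cdkn1b*, the gene of the inhibitor p27, rose 2.81-fold with age, and it alone of the 8 passed an adjusted p of 0.05 in limma. By p it ranked 295 among 11195 genes, and 6.63% of genes had a larger rise. *Ccnd2*, *Cdk4*, *Cdkn2b*, *Cdkn2c* and *Ccnd1* had higher means at 12 months, and *Cdkn1a* and *Cdkn2a* had lower means, but none of these 7 differences passed the test. So 6 of 8 genes had a higher mean, with a median difference of 0.43, where over all 11195 genes tested 43.5% were higher and the median difference was -0.13. The 6 include *Ccnd1*, whose difference of 0.02 changed sign under 6 of 17 alternatives. Of all 17941 probes tested, 8.37% passed the adjusted threshold in either direction and 5.32% passed it as higher, against 1 of the 8 genes. These probes include some not well above background on every array, unlike the 8 genes. With only probes well above background on all 6 arrays, 1700 of 13494 passed, 1079 of them higher, and the median difference was -0.08. The study called a gene changed at more than 2-fold and an unadjusted p below 0.05. With the p-values of limma in that rule 22.0% of probes passed (3953 of 17941), and again 1 of the 8 genes, *Cdkn1b*. The plain unpaired and paired tests that the study names gave 2727 and 1550 of 17876 probes. The 2 ages did not overlap for 3 of the 8 genes, *Cdkn1b*, *Cdk4* and *Cdkn2c*, all higher at 12 months, which lies near the 39.3% of probes without overlap in either direction and above the 16.5% of probes without overlap and higher. The shares without overlap and the share of genes with a higher mean were not counted for probes well above background on all 6 arrays alone.

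**Figure D1:**
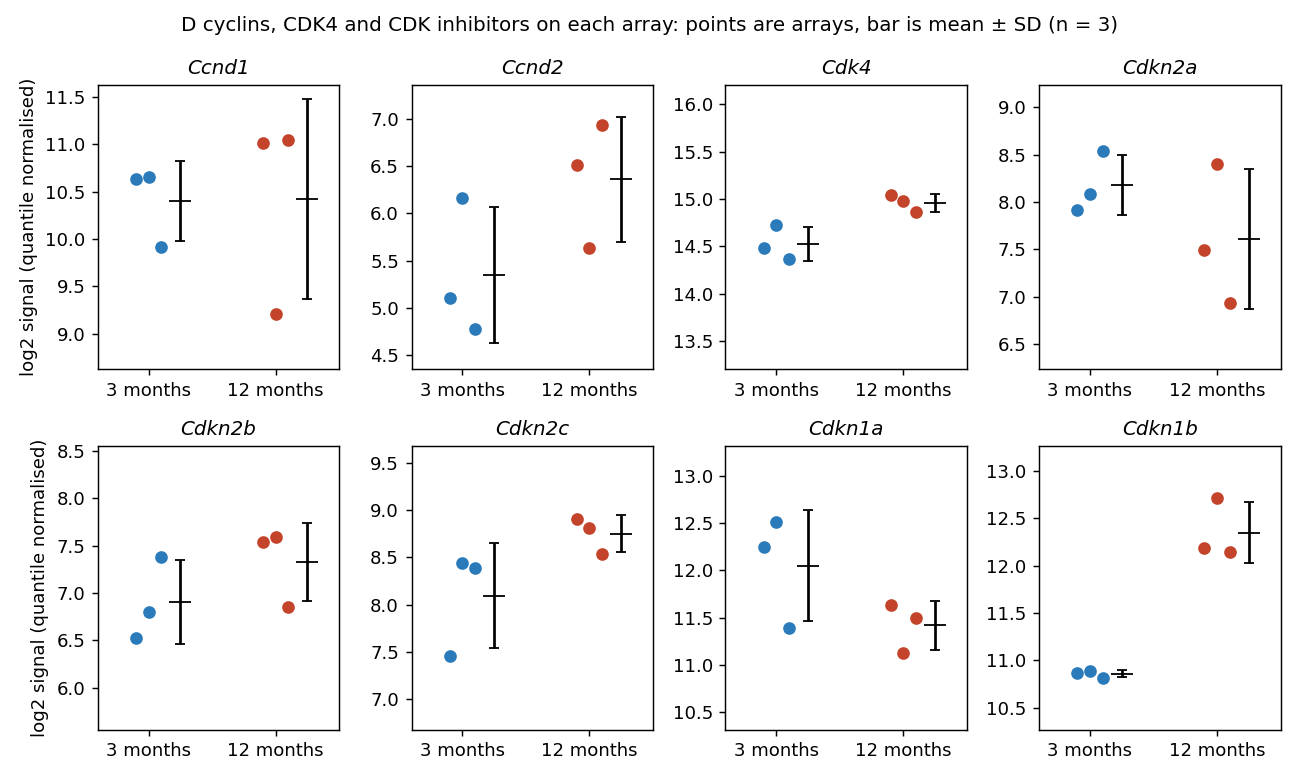
Log2 signal (quantile normalised) of 8 cell cycle genes in islets of 3-month-old (blue) and 12-month-old (red) rats, with 1 point per array and the mean ± SD of 3 arrays in black. Every panel spans 3 log2 units. *Cdkn1b* has 3 points near 10.86 at 3 months and all 12-month points at or above 12.15, while *Ccnd1* has 1 low array at 12 months.

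Among the D cyclins, which carry the growth signal, *Ccnd1* read 10.64, 10.66 and 9.92 on the 3-month arrays and 11.02, 9.21 and 11.05 on the 12-month arrays. The 12-month arrays held both the lowest and the highest values of the 6, and the ages overlapped. Its means were 10.41 ± 0.42 (SD, n = 3) and 10.43 ± 1.05 (SD, n = 3). The difference was 0.02 with a 95% interval of -1.27 to 1.31 (adjusted p = 0.985, limma), wide enough to hold a 2-fold change either way. Its sign rested on single arrays, since it was -0.28 without 12-month array 1, -0.29 without 12-month array 3, -0.22 without 3-month array 3 and 0.63 without 12-month array 2. It was also -0.03 when arrays were scaled to their 75th percentile instead, so no direction with age is given for *Ccnd1*.

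Cyclin D2, the main D cyclin of the growing rodent beta cell, gave 5.11, 6.16 and 4.78 at 3 months and 6.51, 5.63 and 6.93 at 12 months. The second array of each age crossed over, with 3-month array 2 above 12-month array 2. The means of *Ccnd2* were 5.35 ± 0.72 (SD, n = 3) and 6.36 ± 0.66 (SD, n = 3). They differed by 1.01, with a 95% interval of -0.13 to 2.15 (adjusted p = 0.193, limma). Under a normexp background correction the difference was 0.41, and with the 75th percentile scaling 0.57. *Ccnd2* passed the threshold of the study under 2 of 17 alternatives, when 12-month array 2 or 3-month array 2 was left out.

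The kinase *Cdk4* read 14.48, 14.72 and 14.37 at 3 months and 15.04, 14.98 and 14.86 at 12 months. All 12-month arrays lay above all 3-month arrays, by a narrow gap. Its means, 14.52 ± 0.18 (SD, n = 3) and 14.96 ± 0.09 (SD, n = 3), differed by 0.44 with a 95% interval of -0.10 to 0.97 (adjusted p = 0.221, limma). An exact two-sided permutation test gave p = 0.1, the smallest that 3 arrays against 3 allow. With arrays scaled to their 75th percentile the difference was 0.07 and the ages overlapped, while the median of all probes was -0.40 under that scaling and -0.17 under quantile normalisation. The rat gene table lists 4 pseudogenes named after *Cdk4*, and the array cannot tell their RNA from that of the gene where the probe matches both.

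None of the INK4 inhibitors passed the test. *Cdkn2a*, the gene of p16 and of the overlapping ARF transcript, read 7.92, 8.09 and 8.54 at 3 months and 7.49, 8.40 and 6.93 at 12 months. Its lowest values were both at 12 months, but 12-month array 2 lay above 3-month arrays 1 and 2. The mean went from 8.18 ± 0.32 (SD, n = 3) to 7.61 ± 0.74 (SD, n = 3), a difference of -0.57 with a 95% interval of -1.55 to 0.41 (adjusted p = 0.360, limma). It was -0.23 without 12-month array 3, -0.97 without 12-month array 2 and -0.37 under normexp. The interval of the *Cdkn2a* difference leaves out a 2-fold higher level at 12 months, and whether the probe reads p16, ARF or both was not determined here.

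*Cdkn2b*, which encodes the related inhibitor p15 close to *Cdkn2a*, read 6.52, 6.80 and 7.38 at 3 months and 7.53, 7.59 and 6.85 at 12 months. The ages overlapped, with 12-month array 3 below 3-month array 3. Its difference was 0.42 with a 95% interval of -0.38 to 1.23 (adjusted p = 0.406, limma). It ran from 0.23 without 3-month array 1 to 0.66 without 12-month array 3 or 3-month array 3, and was 0.20 under normexp and 0.21 with the 75th percentile scaling. *Cdkn2c*, the gene of p18, read 7.46, 8.44 and 8.39 at 3 months and 8.90, 8.81 and 8.53 at 12 months. Its ages did not overlap, though 12-month array 3 and 3-month array 2 were close. The mean of *Cdkn2c* went from 8.09 ± 0.55 (SD, n = 3) to 8.75 ± 0.19 (SD, n = 3), a difference of 0.65 with a 95% interval of -0.14 to 1.44 (adjusted p = 0.215, limma). Without 3-month array 1 it was 0.33.

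Of the CIP/KIP inhibitors, *Cdkn1a*, the gene of p21 that responds to stress and DNA damage, read 12.25, 12.51 and 11.39 at 3 months and 11.63, 11.13 and 11.50 at 12 months. Both of its highest values came from 3-month arrays, and 3-month array 3 lay within the 12-month range. Its means were 12.05 ± 0.59 (SD, n = 3) and 11.42 ± 0.26 (SD, n = 3), and the difference was -0.63 with a 95% interval of -1.46 to 0.20 (adjusted p = 0.250, limma). It was -0.40 without 3-month array 2 and -0.96 without 3-month array 3.

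*Cdkn1b*, the gene of p27, read 10.87, 10.89 and 10.82 at 3 months and 12.19, 12.72 and 12.15 at 12 months. The 3-month arrays were almost equal, and every 12-month array was higher than every 3-month array. The means were 10.86 ± 0.037 (SD, n = 3) and 12.35 ± 0.32 (SD, n = 3), where the median SD over all genes was 0.38 at 3 months and 0.33 at 12 months. *Cdkn1b* differed by 1.49, with an SE of 0.25 and a 95% interval of 0.90 to 2.09 (adjusted p = 0.0217, limma), and an exact two-sided permutation test gave p = 0.1, the smallest possible. With 1 array left out the difference stayed between 1.31 and 1.59, and with ages that do not overlap its sign could not turn. The adjusted p from limma rose to 0.0814 without 12-month array 1, 0.0625 without 12-month array 3, 0.07345 without 3-month array 1 and 0.0666 without 3-month array 3, so the call at 0.05 needed each of these 4 arrays.

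**Figure D2:**
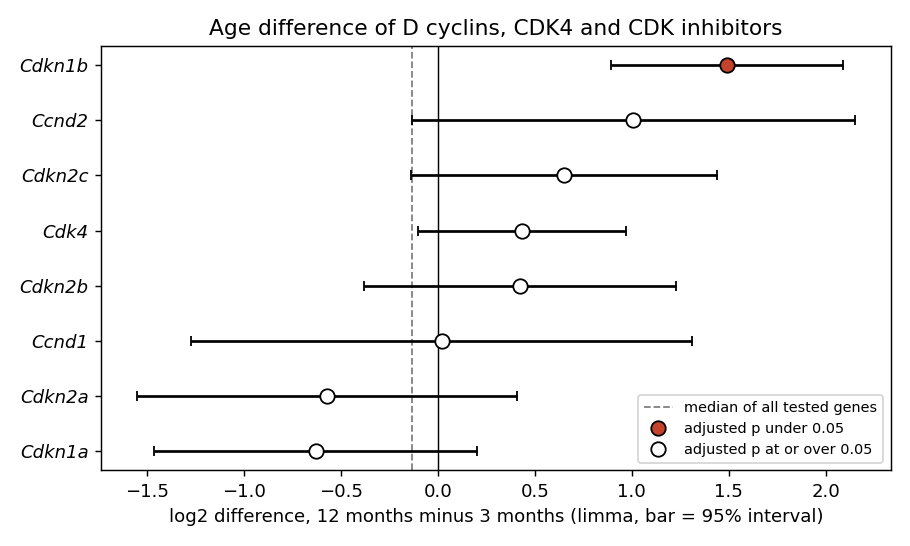
Difference in log2 signal between 12-month and 3-month islets for 8 genes, ordered by size, with the 95% interval from limma as a bar, the adjusted call as a filled point and the median of all tested genes (-0.13) as a dashed line. Only the interval of *Cdkn1b*, 0.90 to 2.09, leaves out 0.

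Because scan and background moved with age, *Cdkn1b* was also set against each other gene of the group on the same array, with signals not scaled between arrays. This comparison was chosen after the values were seen, and *Cdkn1b* was taken for its large difference, so the direction of the ratios follows in large part from that choice and they are given as a description. The ratio of *Cdkn1b* to each of the 7 other genes had a higher mean at 12 months, by 0.79 to 2.15 log2 units, and for 6 of the 7 ratios the ages did not overlap. All 7 share the *Cdkn1b* signal, whose own ages did not overlap. The share of such ratios without overlap over all genes was not counted, so the 6 of 7 has no background to be read against. Against *Cdkn1a*, the other CIP/KIP inhibitor, the log2 ratio was -1.45, -1.70 and -0.64 at 3 months and 0.52, 1.55 and 0.59 at 12 months. All 12-month ratios were above all 3-month ratios. The mean changed by 2.15. Against *Cdk4* the ratio changed by 1.29, against *Cdkn2a* by 2.03 and against *Cdkn2b* by 1.15.

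The ratio of *Cdkn1b* to *Ccnd1* changed by 1.40, but by 0.55 without 12-month array 2, on which *Ccnd1* was lowest and *Cdkn1b* highest. That to *Ccnd2* changed by 0.79 with overlapping ages, by 0.09 without 12-month array 2, by 1.32 without 12-month array 3 and by 1.21 without 3-month array 3. The ratio to *Cdkn2c* changed by 0.79, and by 0.53 without 12-month array 2.

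**Figure D3:**
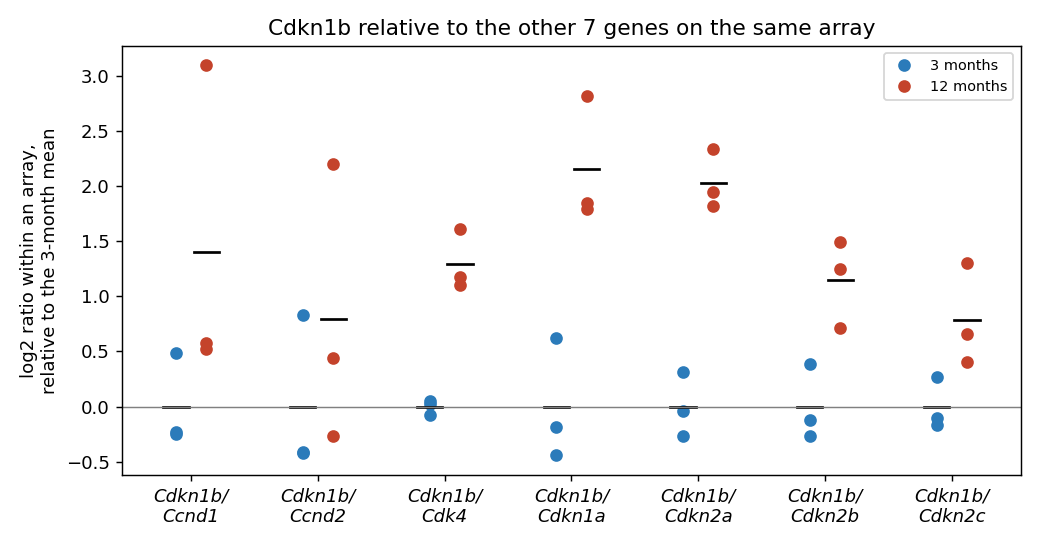
Log2 ratio of *Cdkn1b* to each of 7 other genes within each array, shown relative to the mean of the 3-month arrays, with 1 point per array (blue, 3 months; red, 12 months) and the mean of each age as a black line. All 12-month means lie above 0, from 0.79 for *Cdkn2c* and *Ccnd2* to 2.15 for *Cdkn1a*, and points of both ages overlap for *Ccnd2* alone.

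Over all 6 arrays, 217 of 11142 genes (1.95%) had a Pearson r of at least 0.95 with *Cdkn1b*. The 5 genes most like it were *Cycs* (cytochrome c, r = 0.997), *Zfp608* (a zinc finger protein, r = 0.996), *Gdap1* (a mitochondrial outer membrane protein, r = 0.996), *Zc3h14* (a poly(A) binding protein, r = 0.995) and *Ddhd1* (a phospholipase, r = 0.991). These values describe arrays that share age and scan. Their sizes differed: *Cycs* was 0.53 higher at 12 months (adjusted p = 0.141, limma), and *Ddhd1* 2.53 higher (adjusted p = 0.0171, limma).

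Promoter entries of 250 bases before the gene start existed for 7 of the 10 genes (RefSeq, GRCr8). The window of *Cdk4*, the kinase of the group, is shown because it lies wholly before the first annotated base of its gene. It covers chr7:64771203-64771452 on the plus strand, and capitals mark each match to CACGTG (the E-box that MYC and USF proteins read) and to GGGCGG or its reverse complement (the GC box).
Cdk4: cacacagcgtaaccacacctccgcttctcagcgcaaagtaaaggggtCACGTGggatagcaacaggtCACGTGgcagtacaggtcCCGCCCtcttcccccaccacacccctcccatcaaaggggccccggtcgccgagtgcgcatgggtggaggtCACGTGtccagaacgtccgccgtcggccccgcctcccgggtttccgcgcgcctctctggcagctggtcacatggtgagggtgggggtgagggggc
The E-boxes began 203, 183 and 95 bases before the start, and 5.59% of the 33469 rat promoter windows of this length held at least 1. For *Cdkn1b*, the gene that rose, 2 stretches of 30 bases on the plus strand are shown around its CCAAT boxes (capitals, CCAAT or its reverse complement ATTGG), from chr4:169491344-169491373 and chr4:169491424-169491453. Some annotated transcripts of *Cdkn1b* start upstream of them.
Cdkn1b, distal: ccggcgcccagaCCAATggagctcctcctc
Cdkn1b, proximal: ttccaccgccatATTGGgcaactaaaaaag
A CCAAT box was present in 34.0% of all windows. The *Cdkn1b* window also held a GC box, as did 30.5% of windows, and no match to GTAAACA, the letters read by FoxO factors, which 3.22% of windows held. These matches describe the letters of the windows and were not tested as sites.

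The genes around this switch were read from 7 lists, which held 105 names, 78 with a matched probe and 73 tested. Of the 73, 32 had a higher mean and 41 a lower mean at 12 months, and 9 rose and 1 fell at an adjusted p of 0.05. These calls leaned on single arrays too. The count of 10 was 1 without 12-month array 1, 12-month array 3, 3-month array 1 or 3-month array 3, and 5 without 3-month array 2. Leaving out 12-month array 2 also gave 10, but 7 higher and 3 lower, and not the same genes. *Cks1b*, *Skp1* and *Creb1* dropped out, and *Cdc25b*, *Cdkn3* and *Fbxo4* came in. At 12 months *Cdc25b* and *Cdkn3* were each well above background on 2 of 3 arrays and *Fbxo4* on 0 of 3.

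Control of p27 was read from a list of its own. The SCF-SKP2 ubiquitin ligase marks p27 for destruction with the help of the small protein CKS1, and FoxO factors switch on *Cdkn1b*. Of 9 tested genes of p27 turnover and FoxO, 3 rose and 0 fell at the adjusted threshold, 4 had a lower mean, and the median difference was 0.79. Over all genes tested 546 of 11195 rose and 334 fell. *Cks1b*, the cofactor, went from 4.74 ± 0.14 to 6.51 ± 0.68 (SD, n = 3 each), a difference of 1.77 (adjusted p = 0.0369, limma). It was 0.80 under normexp (adjusted p = 0.0599, limma) and 1.30 with the 75th percentile scaling (adjusted p = 0.0885, limma). *Skp1*, the adaptor shared by many SCF ligases, went from 12.98 ± 0.29 to 14.05 ± 0.08 (SD, n = 3 each), a difference of 1.06 (adjusted p = 0.0469, limma), or 0.74 with the 75th percentile scaling (adjusted p = 0.0909, limma). *Foxo3* went from 4.84 ± 0.30 to 6.07 ± 0.28 (SD, n = 3 each), a difference of 1.23 (adjusted p = 0.0440, limma). The size of the *Foxo3* difference depended on the background, with 0.45 under normexp (adjusted p = 0.101, limma) and 0.76 with the 75th percentile scaling (adjusted p = 0.204, limma). The substrate receptor *Skp2* had a difference of 0.79 (adjusted p = 0.173, limma). Other genes of the list were picked after their values were seen. *Rbx1* had a difference of 1.66 (unadjusted p = 0.0113, adjusted p = 0.0755, limma). It met the threshold of the study and passed the adjusted threshold with the 75th percentile scaling. *Cdc34* and *Foxo4* had means that went the other way. *Cdc34*, the conjugating enzyme of SCF ligases, went from 12.94 ± 0.28 to 11.86 ± 0.27 (SD, n = 3 each), a difference of -1.08 (unadjusted p = 0.00538, adjusted p = 0.0551, limma). *Foxo4*, a relative of *Foxo3*, had a difference of -1.16 (unadjusted p = 0.0105, adjusted p = 0.0731, limma). *Cdc34* and *Foxo4* met the threshold of the study, and *Cdc34* passed the adjusted threshold under normexp and the 75th percentile scaling. The list therefore had no single direction, and the array does not measure p27 protein.

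Downstream of the kinases, *E2f1*, the factor held by the retinoblastoma protein, read 9.99, 10.28 and 10.50 at 3 months and 8.66, 8.84 and 8.92 at 12 months. Every 12-month array was below every 3-month array. *E2f1* fell by 1.45 on the log2 scale (SE 0.24, adjusted p = 0.0215, limma), the 1 call among 4 tested pocket protein and E2F genes. All 4 had an unadjusted p below 0.05 in limma, in both directions. *Rbl2* differed by 0.61 (adjusted p = 0.118, limma), *Tfdp1* by 0.77 (adjusted p = 0.0846, limma) and *Tfdp2* by -0.81 (adjusted p = 0.0664, limma). *Tfdp2* passed the adjusted threshold under normexp and with the methods' t-test, and *Tfdp1* with the variance trend. *E2f3* and *E2f7* had probes that were not well above background on any array, and *Rb1* had no matched probe and was not analysed here.

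The replication and mitosis genes, the usual readout of dividing cells, gave 0 calls among 17 tested, of which 13 had a lower and 4 a higher mean (median -0.30) and 3 an unadjusted p below 0.05 in limma. The genes with the smallest p went opposite ways. *Mcm6*, of the replicative helicase, went from 10.53 ± 0.28 to 9.71 ± 0.10 (SD, n = 3 each), a difference of -0.82 (unadjusted p = 0.0131, adjusted p = 0.0804, limma). *Pcna*, the sliding clamp also used in repair, went from 12.69 ± 0.26 to 13.60 ± 0.34 (SD, n = 3 each), a difference of 0.91 (unadjusted p = 0.0150, adjusted p = 0.0856, limma). Both passed the adjusted threshold under normexp. The third, *Aurka*, named after the values were seen, had a difference of -1.26 (unadjusted p = 0.0178, adjusted p = 0.0918, limma). It was well above background on 2 of 3 arrays at 12 months. *Aurka* met the threshold of the study and passed the adjusted threshold with the 75th percentile scaling. *Mki67* had no matched probe and was not analysed here.

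Of 16 other cyclins and cell cycle kinases tested, 2 rose and 0 fell. *Ccng2*, an atypical cyclin linked to cell cycle arrest, read 4.94, 5.95 and 5.22 at 3 months and 8.45, 7.80 and 8.91 at 12 months. The ages were far apart, and its difference of 3.02 was larger than that of any of the 8 genes of the group (SE 0.40, adjusted p = 0.0114, limma). Under normexp it was 1.85 and still passed. *Ccnc*, which acts with the Mediator kinase in transcription, rose by 1.41 (adjusted p = 0.0302, limma). Partners of CDK2 did not pass, with -0.68 for *Ccne1* (adjusted p = 0.105, limma), 1.15 for *Ccne2* (adjusted p = 0.168, limma) and 0.20 for *Ccna2* (adjusted p = 0.745, limma). *Cdk2* itself, named with *Ccne2* after the values were seen, read 6.37, 7.40 and 3.54 at 3 months and 8.78, 8.26 and 8.69 at 12 months. The ages did not overlap and the 3-month arrays were far apart. Its difference of 2.81 met the threshold of the study but not the adjusted one (unadjusted p = 0.0188, adjusted p = 0.0944, limma), and it passed the adjusted threshold under normexp. Both other CDK inhibitors tested also missed the threshold, with 0.10 for *Cdkn1c*, the p57 gene (adjusted p = 0.815, limma), and -0.99 for *Cdkn3* (adjusted p = 0.234, limma). *Cdkn3* passed when 12-month array 2 was left out, but it was well above background on only 2 of 3 arrays at 12 months.

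Polycomb proteins silence *Cdkn2a* in young beta cells, while menin and its MLL partners keep *Cdkn1b* and *Cdkn2c* on. Of 12 tested genes of this list 2 rose, 0 fell and 8 had a lower mean (median -0.16). *Bmi1*, a Polycomb repressor of *Cdkn2a*, went from 4.96 ± 0.36 to 7.23 ± 0.77 (SD, n = 3 each), a difference of 2.27 (adjusted p = 0.0287, limma). It was 1.12 under normexp (adjusted p = 0.0551, limma) and 1.87 with the 75th percentile scaling (adjusted p = 0.0632, limma). *Kmt2a*, the MLL1 methyltransferase, went from 9.82 ± 0.55 to 11.64 ± 0.39 (SD, n = 3 each), a difference of 1.82 (adjusted p = 0.0325, limma). *Men1* itself had a difference of -0.54 (adjusted p = 0.217, limma). The methyltransferase *Ezh2* was well above background on 3 of 3 arrays at 3 months and 0 of 3 at 12 months, so no fold is given for it (adjusted p = 0.518, limma).

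Upstream, the list of inputs to D cyclins held receptors and factors that carry growth signals and also proteins that mark D cyclins for destruction. Of 13 tested genes 2 rose and 0 fell, and the median difference of 0.04 mixes these opposed roles. Genes of D cyclin destruction had lower means without passing the test. The difference was -0.92 for the kinase *Gsk3b* (unadjusted p = 0.0104, adjusted p = 0.0730, limma) and -0.68 for *Fbxo31* (unadjusted p = 0.0220, adjusted p = 0.102, limma). It was -0.60 for *Ambra1* (adjusted p = 0.186, limma). *Gsk3b* passed the adjusted threshold under normexp. *Fbxo4*, of the same role, was well above background on 0 of 3 arrays at 12 months, so no fold is given for it (unadjusted p = 0.0203, adjusted p = 0.0975, limma). These genes and *Myc* were picked after their values were seen. *Pdgfrb*, a platelet-derived growth factor receptor typical of mesenchymal cells, rose by 1.68 (adjusted p = 0.0453, limma). The summed level of 4 other mesenchymal genes was higher at 12 months too (median difference 1.46), and their part in this result was not tested. *Creb1*, which mediates cyclic AMP signals, rose by 1.21 (adjusted p = 0.0398, limma), with 0.97 under the 75th percentile scaling (adjusted p = 0.0563, limma). *Myc*, a growth factor target that drives cell cycle entry, read 4.63, 6.86 and 2.69 at 3 months and 9.24, 7.91 and 8.40 at 12 months. Its ages did not overlap, but the 3-month arrays were widely spread and 1 of them was not well above background. The difference of 3.79 missed the adjusted threshold (unadjusted p = 0.00694, adjusted p = 0.0620, limma) and met that of the study. *Myc* did pass under normexp, with the variance trend and without 3-month array 2.

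**Figure D4:**
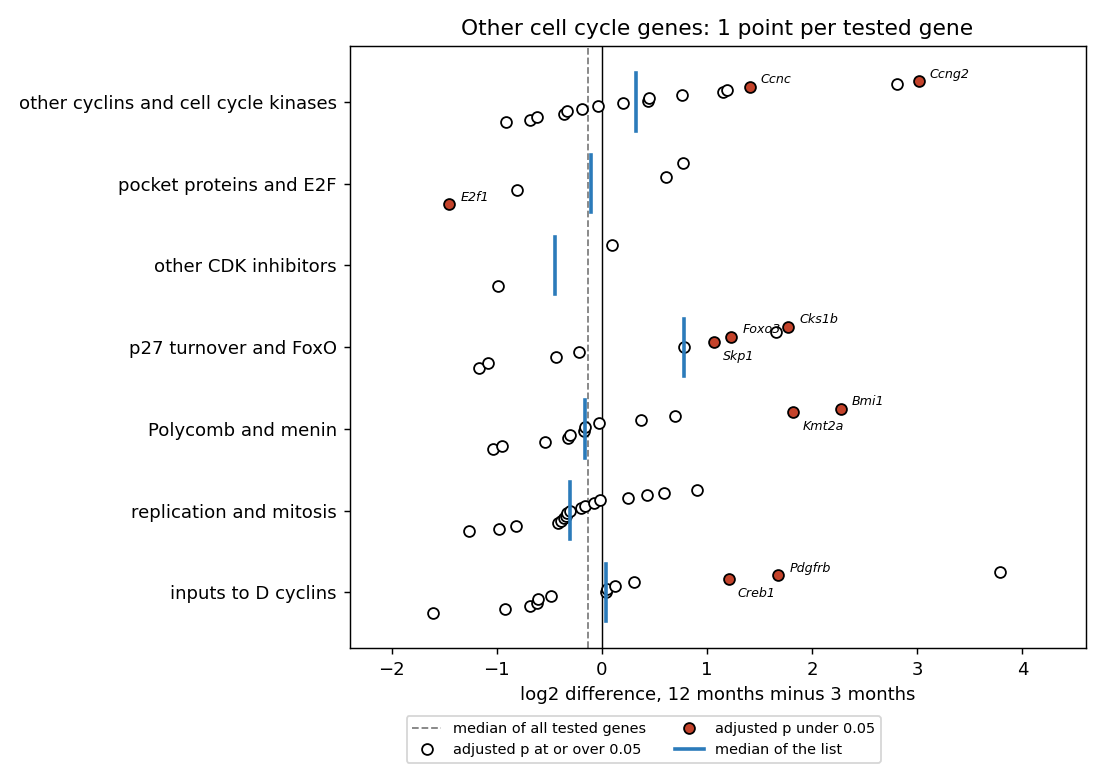
Difference in log2 signal between 12-month and 3-month islets for 73 tested genes in 7 lists of cell cycle genes, with 1 point per gene, filled and named where the adjusted p was under 0.05, a blue line at the median of each list and a dashed line at the median of all tested genes (-0.13). There are 9 filled points above 0 and 1, *E2f1*, below.

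Markers of the cells in these preparations were read beside the results. *Ins1*, *Ins2*, *Gcg* and *Sst*, the islet hormone genes, were well above background on all 6 arrays, and so were the acinar enzyme genes *Cpa1* and *Amy2a3*. Of 6 tested beta cell genes 4 were higher and 2 lower, and the summed level (log2 of the summed signals of the list on an array) ran from 19.7 to 19.9 at 3 months and 19.9 to 20.2 at 12 months. Of these *Slc30a8*, the granule zinc transporter, rose by 3.71 (adjusted p = 0.00904, limma). Of 7 other endocrine genes 6 were higher, with a summed level of 19.5 to 19.6 and 19.8 to 19.9, and *Hhex* of delta cells rose by 1.68 (adjusted p = 0.0236, limma). Both sums rest mostly on hormone genes, whose bright probes take values set by their rank under quantile normalisation. *Ins1*, for example, read 18.72 on 3-month array 3 and on 12-month arrays 1 and 2. The sums therefore cannot show whether the share of endocrine cells was alike.

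Without 1 array at a time *Slc30a8* passed in each case, while the 4 calls over all markers became 1 without 12-month array 1, 12-month array 3 or 3-month array 1 and 2 without 3-month array 2 or 3-month array 3.

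Markers of other cells are given in the same way. All 4 tested stellate and mesenchymal genes had a higher mean at 12 months (median 1.46, 0 calls, 3 at an unadjusted p below 0.05 in limma), and their summed level went from 13.2 to 14.0 at 3 months to 14.6 to 15.9 at 12 months. All 6 tested nerve and Schwann genes were lower (median -1.32), with a summed level of 12.7 to 13.3 at 3 months and 11.6 to 12.1 at 12 months. Of these *Prph* fell by 3.04 (adjusted p = 0.0299, limma), and *Sox10* differed by -2.08 with 3-month array 1 missing from its fit (adjusted p = 0.0336, limma). In the endothelial list 5 of 6 had a lower mean and *Pecam1* a higher one, by 1.23 (0 calls in limma, and 4 genes, *Pecam1* among them, at an unadjusted p below 0.05). *Cdh5*, another of these 4, was well above background on 3 of 3 arrays at 3 months and 0 of 3 at 12 months. The endothelial genes had a summed level of 15.8 to 16.2 and 14.9 to 15.7.

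The remaining marker lists overlapped between ages in summed level and gave 0 calls in limma, with 1 gene, of red blood cells, at an unadjusted p below 0.05. Acinar genes had a summed level of 20.6 to 21.0 at 3 months and 20.7 to 21.1 at 12 months, with 6 of 7 higher. This sum rests mostly on the brightest genes, to which quantile normalisation gives values set by their rank. *Cela2a*, for example, read 18.57 on all 12-month arrays. The sum therefore cannot show whether the share of acinar tissue was alike. *Ctrb1*, the dimmest of the 7, read 16.61, 17.07 and 14.02 at 3 months and 17.64, 14.39 and 17.91 at 12 months. Its lowest array at each age, 3-month array 3 and 12-month array 2, was also lowest for *Cpa1* and *Cela1* and for both D cyclins measured, *Ccnd1* and *Ccnd2*. A link was not tested. Duct genes ran from 13.7 to 14.3 and 13.1 to 14.5 (2 of 4 higher), immune genes from 14.6 to 16.1 and 14.3 to 16.2 (1 of 7 higher), and red blood cell genes from 16.2 to 16.8 and 15.3 to 16.7 (0 of 2 higher). The part of any of these cells in the *Cdkn1b* or *E2f1* difference was not tested.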

How the data were processed

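RNA was isolated from islets with the miRNeasy kit and profiled by a service provider on Agilent 1-colour arrays. The deposited scanner files hold spot intensities from Agilent Feature Extraction, background-subtracted per the file headers, and the authors also deposited a table of normalised log2 values (12145 probes, medians 9.40 to 9.48, r with the values used here 0.9996 or more). Per the study's supplement the authors quantile normalised these values and took p from a paired t-test. The version of the extraction software is not given in the sources used here.

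The log2 processed intensities of 24684 non-control probes (42136 spots) were averaged by probe and quantile normalised. Probes well above background on 3 of 6 arrays were tested (17941) with limma 3.58.1 (R 4.3.3). The p-values were adjusted over all of these probes after Benjamini and Hochberg, and the fit was tested on simulated data. There 200 of 17876 probes were changed, fewer than the 1502 called in the data. Of 2-fold, 4-fold and 8-fold changes 0%, 54.5% and 92.5% passed the adjusted threshold. At the threshold of the study 368 to 401 unchanged probes passed. A gene that missed the adjusted threshold is therefore not shown to be unchanged. The probe with the highest mean stood for a gene. Of 15321 mRNA probes, 14266 took a symbol from the RefSeq gene table (GRCr8). The array's design build was another, so none of its coordinates were used. Promoter windows came from a GRCr8 table. No spot was saturated.

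Samples were grouped by the age in the labels. Nothing pairs the replicate numbers, whose deviations correlated at -0.01 and -0.31 in the 2 numbered pairs. Each array is a separate sample, and 3 per age limit the precision. From the 7 cell cycle lists (cyclins and kinases, pocket proteins and E2F, other CDK inhibitors, p27 turnover and FoxO, Polycomb and menin, replication and mitosis, inputs to D cyclins) the text names up to 4 called genes each with the largest difference, or otherwise the 2 with the smallest p, a fixed set of regulators, and the 5 genes most like the called one. The 9 marker lists serve the cell types. Genes and lists were chosen with earlier results of these data known. The threshold of the study asks for more than 2-fold and an unadjusted p below 0.05. The alternatives were a 75th percentile shift, normexp with an offset of 50, the authors' table, 2 other probe filters, a variance trend, plain tests, a replicate block, a subset of 4 arrays, leaving out each array, and the mean over a gene's probes. Scan could not be fitted as a block.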

Additional observations from a re-analysis of the deposited data

How the results depend on the processing

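*Cdkn1b* was higher at 12 months under all 17 alternatives (1.30 to 1.60), with an unadjusted p under 0.05 in 17 and an adjusted p under 0.05 in 9. Each gene has 1 probe, so some of the 17 changed only the p-value and could not change a sign. Nor could leaving out arrays turn the sign of *Cdkn1b*, whose ages did not overlap. The adjusted p was 0.0512 with the methods' t-test, 0.256 with the paired test and 0.170 on 4 arrays whose names share an ending, and 0 of the 8 genes passed there. Leaving out 1 array gave 0 to 1 of the 8 by adjusted p and 1 to 2 by the threshold of the study, the other being *Ccnd2*. *Ccnd1* turned to -0.033 with the 75th percentile shift and -0.18 on the 4 arrays, and ran from -0.29 to 0.63 without 1 array. The other 6 genes kept their sign and passed under none of the 17. The cause of the lost calls and turned signs was not tested.

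With replicate numbers as a block, which the data do not pair, *Cdkn1b* was 1.57 higher (adjusted p = 0.261, limma), *Ccnd1* was -0.54, and 0 of 8 genes, 0 pathway genes, 0 markers and 0 of all probes passed the adjusted threshold, while 2775 probes passed that of the study. Of the older age, 1 array has no number.

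Of all probes, 1502 passed the adjusted threshold (955 higher), against 2339 with no filter, 437 with the methods' t-test, 1 with the paired test, 0 on 4 arrays and 208 to 2163 without 1 array. With the 75th percentile shift 794 were higher and 926 lower. The 3953 probes at the study threshold (1819 higher) became 2102 with normexp (1242 higher), 2379 in the authors' table, 1550 with the paired test and 2604 on 4 arrays, and the shift gave 4921 (1388 higher). The 10 called pathway genes became 2 with the methods' t-test, 0 with the paired test, 0 on 4 arrays and 1 to 10 without 1 array. The 4 called markers became 9 with a variance trend, 0 with either plain test, 0 on 4 arrays and 1 to 5 without 1 array. Signals near background, as for *Ezh2* at 12 months, set no level.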
